A study of Mus musculus with 4 samples.

Results

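The p53 pathway was followed through 10 genes: Trp53, Mdm2, Ccng1, Sesn1, Bax, Bbc3, Trp53inp1, Phlda3, Zmat3 and Eda2r. They were taken by name from the deposited table of 50679 genes, and each name matched 1 identifier. RNA had been sequenced from mouse mammary tumour cells of the PyMT model, in which the polyoma middle T oncogene drives the tumour, with 2 libraries labelled PCNA WT and 2 labelled PCNA 211F. PCNA is the sliding clamp of DNA replication, and 211F is the variant's name as the labels give it. All 4 libraries carry PyMT, and the labels call the cells luminal epithelial adenocarcinoma; tumours came from mice 10 weeks old, an antibody to EpCAM, an epithelial surface protein, was used to capture cells, and these were plated at 100000 in medium with serum. Not given in the sources used here are the promoter that drives PyMT, the mouse strain and the number of animals behind a library. The design text calls the 2 libraries of a genotype independent biological repeats, but nothing says that they came from separate animals, so p-values reflect only how far these libraries spread, which may be technical. The comparison asks whether the p53 network is set at a different level in tumour cells with the PCNA variant.

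The transcription factor p53, encoded by Trp53 in mice, is held at a low protein level by Mdm2, a ubiquitin ligase that marks it for destruction. DNA damage and stalled replication free p53 from Mdm2, mainly at the protein level, and p53 then activates genes that stop the cell cycle, repair DNA or kill the cell. Mdm2 is itself a p53 target, which closes a negative feedback loop. Transcript levels of targets are therefore a common readout of p53 activity, while the level of Trp53 RNA is not.

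Sequence upstream of the start sites is shown for the p53 gene, for its feedback regulators Mdm2 and Ccng1, and for Sesn1 and Eda2r. The last 2 are among the genes whose levels did not overlap between the genotypes. These were 3 of the 10, beside 26.8% of all genes tested. Each line gives the 250 bases before a transcription start from the RefSeq promoter table of GRCm38.p6, 5′ to 3′ on the gene's strand. The Sesn1 line is for its downstream start, and its upstream start, not shown, held no p53 decamer. Capitals mark matches to the p53 consensus decamer, to TGTTTAC (a core of forkhead factor sites, GTAAACA on the other strand), or, in Ccng1, to a pair of adjoining decamers.
Trp53 (chr11:69580109-69580358, plus strand): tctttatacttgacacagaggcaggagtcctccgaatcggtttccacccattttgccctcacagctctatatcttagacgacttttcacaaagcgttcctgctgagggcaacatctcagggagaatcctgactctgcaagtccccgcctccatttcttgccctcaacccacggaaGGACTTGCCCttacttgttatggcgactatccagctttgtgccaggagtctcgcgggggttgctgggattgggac
Mdm2 (chr10:117710759-117711008, minus strand): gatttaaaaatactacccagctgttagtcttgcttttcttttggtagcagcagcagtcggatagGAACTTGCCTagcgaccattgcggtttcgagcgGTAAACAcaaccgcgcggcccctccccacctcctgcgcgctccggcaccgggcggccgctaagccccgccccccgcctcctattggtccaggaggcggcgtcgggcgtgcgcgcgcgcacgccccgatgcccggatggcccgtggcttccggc
Ccng1 (chr11:40755287-40755536, minus strand): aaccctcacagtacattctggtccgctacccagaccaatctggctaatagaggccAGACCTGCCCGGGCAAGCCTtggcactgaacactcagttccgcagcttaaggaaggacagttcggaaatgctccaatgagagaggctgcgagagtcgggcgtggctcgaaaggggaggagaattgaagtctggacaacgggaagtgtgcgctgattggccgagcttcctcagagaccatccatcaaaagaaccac
Sesn1 (chr10:41887189-41887438, plus strand): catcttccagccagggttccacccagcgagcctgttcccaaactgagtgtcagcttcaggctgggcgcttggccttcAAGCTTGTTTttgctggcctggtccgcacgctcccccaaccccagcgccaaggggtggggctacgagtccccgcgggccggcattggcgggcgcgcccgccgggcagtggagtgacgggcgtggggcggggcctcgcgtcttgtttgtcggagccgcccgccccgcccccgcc
Eda2r (chrX:97377210-97377459, minus strand): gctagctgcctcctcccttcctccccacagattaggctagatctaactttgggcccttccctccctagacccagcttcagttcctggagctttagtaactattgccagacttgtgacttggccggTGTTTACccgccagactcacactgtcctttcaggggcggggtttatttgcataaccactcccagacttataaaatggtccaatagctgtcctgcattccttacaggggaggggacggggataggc

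Promoters were listed for 8 of the 10 genes, with 11 start sites, and both strands of the 300 bases from 250 before to 50 after each start were searched. Trp53inp1 and Zmat3 were not matched. A p53 decamer was present in 5 of the 8 genes (Trp53, Mdm2, Ccng1, Sesn1 and Bax), and 9.55% of the 27025 genes in the promoter table held one. It lay 75 bases before the start of Trp53, 186 before that of Mdm2, 185 before that of Ccng1, 173 before the downstream start of Sesn1 and 201 before that of Bax. Ccng1 held 2 adjoining decamers, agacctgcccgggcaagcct, with 1 of 20 bases off the consensus; 0.107% of genes had such a pair. TGTTTAC was present in 4 of the 8 genes, at 125 bases before the start of Eda2r, 153 before that of Mdm2, 167 before a start of Bbc3 and 23 after the upstream start of Sesn1, and in 4.05% of all genes. The TGTTTAC motif was chosen after the sequences were read, and these matches are letters in a window and not shown to be bound. The second Mdm2 promoter, known to lie in its first intron and to carry p53 sites, is outside the window shown.

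Libraries of 1 genotype differed in cell state. Levels are in FPKM, a count of fragments per kilobase scaled to the size of the library, and a pair of values for a genotype gives library 1 and then library 2. The summed level of 9 epithelial markers was 6.98 FPKM in the library WT 2, while WT 1 had 3024, 211F 1 had 3226 and 211F 2 had 3546. In WT 2 the capture antigen gene Epcam was at 0.893 FPKM, and 2 of the 9 markers reached 1 FPKM. The summed level of 6 mesenchymal markers reached 2387 FPKM in WT 2 and 3891 FPKM in 211F 1, with 269 in WT 1 and 39.5 FPKM in 211F 2. The sum of 6 fibroblast markers came to 1052 FPKM for WT 2 and no more than 15.9 for any other library. In WT 2 Col1a1 and Col1a2 were at 437 and 416 FPKM, but Dcn was at 3.72 and Lum at 0.007. The 4 smooth muscle and myoepithelial markers summed to 108 FPKM in WT 2 and 615 in 211F 1. In 211F 1 Acta2 was at 442 FPKM and Myh11 at 0.315. Sums for 5 leukocyte markers were at most 3.86 FPKM, for 3 endothelial markers at most 1.87 and for 3 adipocyte markers at most 2.28. The library labelled WT 2 therefore goes against its epithelial label. Whether the other libraries are luminal, as labelled, was not tested. Krt14, a basal keratin gene, exceeded Krt8 and Krt18 in each of them. Krt5, also a basal keratin gene, exceeded both in 211F 1, at 1029 FPKM. It lay below both in WT 1 (245, with Krt8 at 433 and Krt18 at 327). The same held in 211F 2 (3.84, with Krt8 at 582 and Krt18 at 250). Trp63, a factor of basal epithelium, had 89.6 FPKM for WT 1, 11.5 for 211F 1 and 42.2 for 211F 2. Leaving out WT 2 moved the difference by over 1.5 times, or turned its sign, in 19 of the 31 tested members and list genes named here (6 of 9 members). Most of these values are given beside the gene. From the step size of low values, a level of 3 fragments in 1 kb corresponds to 0.0496 FPKM in WT 2 and up to 0.0911 in 211F 2.

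Trp53 (ENSMUSG00000059552; GRCm38 chr11:69580359-69591873, plus strand) was at 107 and 123 FPKM in the WT libraries and 195 and 92.3 FPKM in the 211F libraries. It was highest in 211F 1 and lowest in 211F 2, so the WT values lay between those of 211F. The means were 115 ± 11.2 FPKM in WT and 144 ± 72.8 in 211F (SD, n = 2 each), and the difference of 0.23 ± 0.43 (SE) in log2(FPKM + 1), 211F minus WT, was smaller than its error. Without 211F 1 that difference turned to -0.31. Reads from 353 aligned bases at 97.7% identity could be shared with the pseudogene Trp53-ps, which is listed at 0 in all 4 libraries.

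Mdm2 (ENSMUSG00000020184; chr10:117688875-117710758, minus strand) was likewise highest in 211F 1, at 33.4 and 36.7 FPKM in the WT libraries and 50.8 and 35.2 FPKM in the 211F libraries. The other 3 libraries lay close together, between 33.4 and 36.7 FPKM. The difference was 0.27 ± 0.28 (SE), and it was 0.008 without 211F 1 and 0.52 without 211F 2. Within each library the ratio of Mdm2 to Trp53, which does not depend on the scaling between libraries, was 0.313 and 0.299 for the WT pair and 0.26 and 0.382 for the 211F pair. The ratio was thus lowest and highest in the 2 libraries of 211F, with both WT libraries between them.

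Ccng1 overlapped between the genotypes and Sesn1 did not. Ccng1 (ENSMUSG00000020326; chr11:40748552-40755311, minus strand) encodes cyclin G1, which guides a phosphatase to Mdm2. It was at 17.7 and 24.5 FPKM in the WT libraries and 28.3 and 23.5 FPKM in the 211F libraries, a difference of 0.30 ± 0.29 (SE), with overlapping groups; it was 0.07 without WT 1 and 0.52 without WT 2. Sesn1 (ENSMUSG00000038332; chr10:41809935-41908424, plus strand) encodes sestrin 1, which restrains mTORC1 in stress. It was at 13.1 and 13.4 FPKM in the WT libraries and 5.10 and 4.56 FPKM in the 211F libraries. The groups did not overlap, and the means of 13.2 ± 0.26 and 4.83 ± 0.379 FPKM (SD, n = 2 each) differed 2.74-fold. The Sesn1 difference was -1.29 ± 0.30 (SE; unadjusted p = 0.012, limma adjusted p = 0.9999), so it did not pass over all genes, and 42 of the 12767 genes tested had a smaller p. Without WT 2 it was -1.27. Sesn1 differed by -1.34 between 211F 2 and WT 1 and by -1.24 between 211F 1 and WT 2. These pairs were chosen after the data were seen and carry no test. The first pair is unlike in Krt5 (245 FPKM in WT 1, 3.84 in 211F 2) and Vim (124 and 1.86 FPKM). The second pair is unlike in epithelial and fibroblast markers.

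Phlda3 (ENSMUSG00000041801; chr1:135766119-135769136, plus strand), whose product competes with Akt for membrane lipids, was at 59.9 and 27.3 FPKM in the WT libraries and 52.3 and 90.8 FPKM in the 211F libraries. WT 2 was the lowest library and 211F 2 the highest, and 211F 1 lay below WT 1. Its difference was 0.75 ± 0.52 (SE), the highest among the members, and it ran from 0.20 without WT 2 to 1.30 without WT 1.

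Among the genes of cell death, Bax was even and Bbc3 stood apart in 1 library. Bax (ENSMUSG00000003873; chr7:45461697-45466898, minus strand), which permeabilises the outer mitochondrial membrane, was at 42.4 and 37.4 FPKM in the WT libraries and 34.99 and 47.6 FPKM in the 211F libraries, with a difference of 0.03 ± 0.27 (SE). Exons of Bax share 192 bases with Gm45808, a gene on the same strand listed at practically 0. Bbc3 (ENSMUSG00000002083; chr7:16308393-16318205, plus strand) encodes PUMA, which frees Bax from its inhibitors, and was at 8.001 and 2.99 FPKM in the WT libraries and 2.86 and 3.35 FPKM in the 211F libraries. The high value was that of WT 1 alone: the difference of -0.55 ± 0.55 (SE) turned to 0.04 without it, and was -1.14 without WT 2. The ratio of Bax to Bbc3 was 5.30 in WT 1 and between 12.2 and 14.2 in the other 3 libraries.

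Eda2r (ENSMUSG00000034457; chrX:97333840-97377216, minus strand) encodes a receptor of the TNF family for ectodysplasin A2. It was at 0.959 and 1.67 FPKM in the WT libraries and 0.211 and 0.199 FPKM in the 211F libraries. Both WT libraries lay above both 211F libraries, and the WT mean was 6.42 times that of 211F, or 4.67 times without WT 2. All 4 values exceeded the level of 3 fragments in 1 kb, and the 211F values correspond to 8.08 and 6.56 fragments per kb. Its mean stayed under the filter of 1 FPKM, so it was not in the test; with no filter the difference was -0.93 ± 0.26 (SE; unadjusted p = 0.0263, limma adjusted p = 0.9956).

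The last pair act with p53 or on RNA. Trp53inp1 (ENSMUSG00000028211; chr4:11156431-11174379, plus strand), a stress protein of p53 phosphorylation and autophagy, was at 6.62 and 1.85 FPKM in the WT libraries and 1.33 and 1.70 FPKM in the 211F libraries. The groups did not overlap, but WT 2 was only just above 211F 2, and WT 1 stood apart from the other 3 libraries. The difference was -0.90 ± 0.65 (SE), -0.19 without WT 1 and -1.61 without WT 2. Zmat3 (ENSMUSG00000027663; chr3:32334792-32366014, minus strand), an RNA-binding zinc finger protein, was at 6.65 and 4.80 FPKM in the WT libraries and 5.51 and 5.57 FPKM in the 211F libraries, a difference of -0.03 ± 0.35 (SE).

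**Figure D1:**
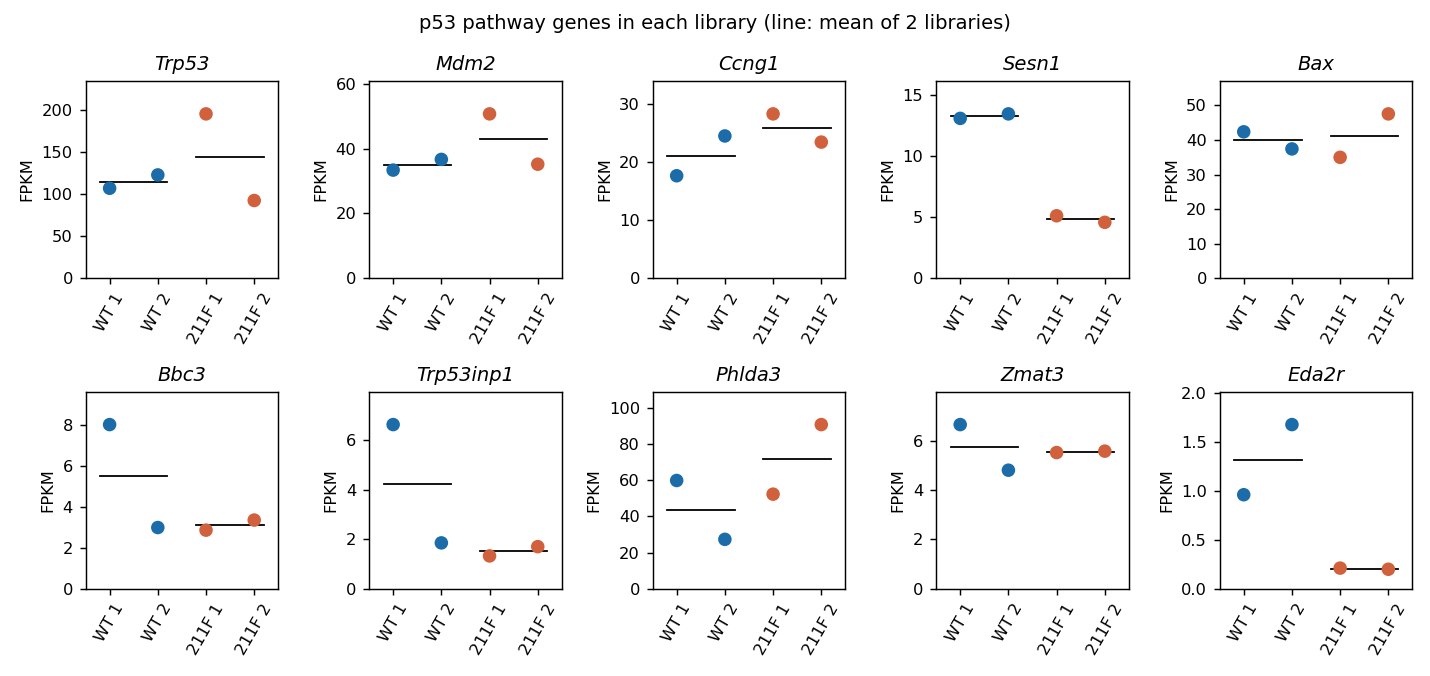
Level of each of the 10 genes in FPKM (vertical axis, from 0) in the 4 libraries (horizontal axis; blue WT, orange 211F), with a line at the mean of the 2 libraries of each genotype. Sesn1 sits at 13.1 and 13.4 FPKM in blue and at 5.10 and 4.56 in orange, while Bbc3 and Trp53inp1 are high in WT 1 alone.

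None of the 9 members tested passed limma at an adjusted p of 0.05, and the adjusted p of each was 0.9999; over all genes, 0 of 12767 (0%) passed. At an unadjusted p under 0.05 stood 1 member, Sesn1, and 241 genes overall (1.89%). Positive and negative differences were split 5 to 4, with a median of 0.03, which is also the median over all genes tested, where 53.1% were positive. The groups did not overlap in 2 of the 9 (Sesn1 and Trp53inp1), both lower in 211F, against 26.8% of all genes tested in either direction and 11.6% lower in 211F. The share of 22.2% is near the 26.8% for either direction and above the 11.6% lower in 211F, but it rests on 2 genes. With Eda2r, which was not tested, the groups did not overlap in 3 of 10, all lower in 211F. No test was run on these counts. An exact permutation test of 2 libraries against 2 cannot go below p = 0.333 (two-sided). In bulk samples, fewer cells of a type and less RNA per cell cannot be told apart.

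**Figure D2:**
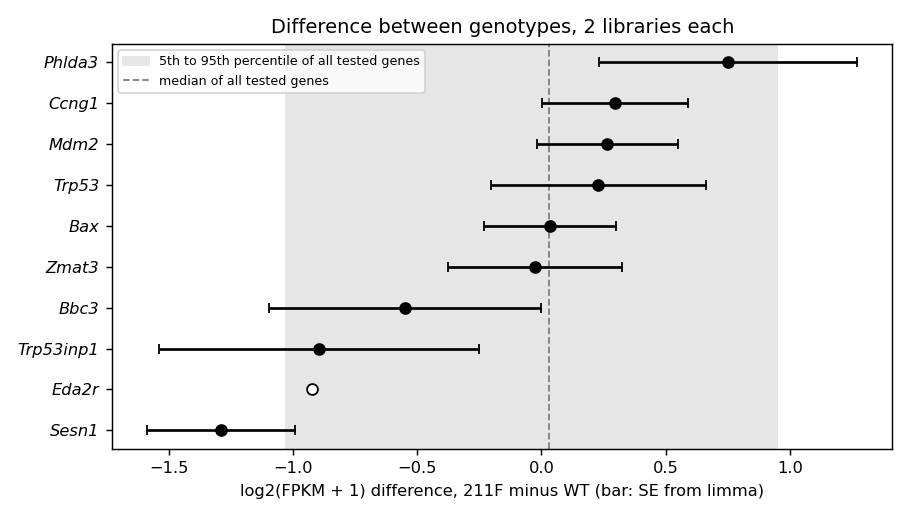
Difference in log2(FPKM + 1), 211F minus WT (horizontal axis), for each gene (vertical axis), with the SE from limma as bars; the open circle is Eda2r, which was under the filter. The grey band holds the 5th to 95th percentile of all genes tested, -1.03 to 0.95, and Sesn1 at -1.29 is the only member outside it. Eda2r at -0.93 lies inside, but this scale understates changes at low levels: its WT mean was 6.42 times that of 211F.

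No library was high across the set. Of the 10 genes, 3 were highest in WT 1 (Bbc3, Trp53inp1 and Zmat3), 2 in WT 2 (Sesn1 and Eda2r), 3 in 211F 1 (Trp53, Mdm2 and Ccng1) and 2 in 211F 2 (Bax and Phlda3). The median level of the 10 was 15.4, 19.0, 16.9 and 14.5 FPKM in WT 1, WT 2, 211F 1 and 211F 2. By the distance between their mean-centred log2 profiles, the closest pairs were Mdm2 with Ccng1 (0.29), Bax with Zmat3 (0.342), Bbc3 with Trp53inp1 (0.389), Trp53 with Mdm2 (0.399) and Sesn1 with Eda2r (0.474). These are descriptions over 4 libraries and carry no test.

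The gene nearest to each member was also taken over the genes tested, with some classes of symbol passed over. For Sesn1 it was Pnrc1, a nuclear receptor coactivator, at a distance of 0.137, with levels of 59.7 and 55.1 FPKM in the WT libraries and 25.8 and 22.8 in those of 211F. Within 0.25 lay 7 genes for Sesn1, 6 for Trp53inp1, 13 each for Bbc3 and Phlda3 and 42 for Trp53, and between 384 and 718 for Mdm2, Ccng1, Bax and Zmat3, whose profiles are flatter. The nearest gene was Mme for Trp53 (0.057), Dtwd1 for Mdm2 (0.038), Hsph1 for Ccng1 (0.014), Avl9 for Bax (0.032) and Mta1 for Zmat3 (0.022). Bbc3 was nearest to Stx6 (0.122), Trp53inp1 to Coq8a (0.129), which also had its highest level in WT 1 (4.88 FPKM, and no more than 0.959 in another library), and Phlda3 to Cyth1 (0.106).

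Other regulators of p53 lay on both sides. Of 30 regulators, all tested, 19 had positive and 11 negative differences, none passed the test, and the median was 0.10. Trp53bp1, a scaffold at DNA breaks that binds p53, was at 43.5 and 38.3 FPKM in the WT libraries and 30.9 and 27.1 in the 211F libraries (-0.48 ± 0.23, SE). Rchy1, a ubiquitin ligase of p53, had 13.4 and 17.8 FPKM in WT libraries against 10.9 and 11.05, and the SUMO ligase gene Pias1 had 30.0 and 30.2 against 22.3 and 25.9. Daxx, a histone chaperone that also binds Mdm2, was at 19.9 and 16.1 against 23.0 and 21.7 FPKM. Without WT 2 the difference of Rchy1 went from -0.46 to -0.26 and that of Daxx from 0.31 to 0.16. The groups did not overlap in 8 of the 30 regulators, or 26.7%, beside 26.8% of all genes.

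The Cdkn2a locus makes Arf, which blocks Mdm2, and p16, and the table does not separate them. Cdkn2a, named after its values were seen, was at 27.0 and 101 FPKM in the WT libraries and 116 and 68.8 FPKM in the 211F libraries. It was lowest in WT 1 and highest in 211F 1, and the groups overlapped. Mdm4, the partner of Mdm2 that masks p53 and likewise chosen after its values were seen, was at 20.6, 27.9, 16.8 and 23.5 FPKM in the same order. Mdm2 exceeded Mdm4 in every library, by a ratio of 3.03 in 211F 1 and between 1.32 and 1.62 in the others.

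The p53 relatives were highest in WT 1 and lowest in WT 2. Trp63, a p53 family factor of basal epithelium, was at 89.6 and 0.329 FPKM in the WT libraries and 11.5 and 42.2 FPKM in the 211F libraries. Trp73 was at 8.22 and 0.0275 FPKM in the WT libraries and 0.246 and 0.964 FPKM in the 211F libraries, and the WT 2 value is below that of 3 fragments in 1 kb. WT 2 is also the library with the lowest summed epithelial markers; the part of cell state in these levels was not tested. Neither difference held its direction when a library was left out, with -1.96 for Trp63 without WT 2 and 0.61 for Trp73 without WT 1.

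Targets of cell cycle arrest included genes higher in both 211F libraries that did not pass the test. Of 12 listed, 10 were tested, with 4 positive and 6 negative differences and a median of -0.06. Cdkn1a, whose product p21 inhibits cyclin-dependent kinases and binds PCNA, was at 3.80 and 1.55 FPKM in the WT libraries and 12.4 and 5.41 FPKM in the 211F libraries. Both 211F libraries lay above both of WT, and the 211F mean was 3.32 times the WT mean. The ratio of Sesn1 to Trp53 was 0.122 and 0.109 for the WT pair and 0.0261 and 0.0494 for the 211F pair. That of Cdkn1a to Trp53 went the other way. For Cdkn1a it was 0.0356 and 0.0126 for the WT pair and 0.0634 and 0.0586 for the 211F pair. Its difference was 1.40 ± 0.60 (SE; unadjusted p = 0.0785, limma adjusted p = 0.9999), 0.95 without WT 2 and 0.87 without 211F 1. Plk3, a stress kinase, was at 7.29 and 5.26 FPKM in the WT libraries and 27.9 and 7.89 in the 211F libraries, and was high in 211F 1 alone (difference 1.15, and 0.30 without that library). Sfn, the epithelial 14-3-3 sigma, was at 128 and 0.528 FPKM in the WT libraries and 221 and 227 FPKM in the 211F libraries, so its difference of 4.01 ± 2.26 (SE) came down to 0.81 without WT 2. Psrc1, a spindle protein, was at 30.8 and 11.3 against 5.68 and 12.7 FPKM.

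Targets of apoptosis were split 8 positive to 4 negative among 12 tested, with a median of 0.08. Aen, a nuclease of DNA fragmentation, was at 28.1 and 23.8 FPKM in the WT libraries and 57.3 and 34.8 in the 211F libraries (0.77 ± 0.34, SE; 0.41 without 211F 1). Pmaip1, which encodes the Bcl-2 family antagonist NOXA, was at 5.12 and 0.219 against 15.4 and 6.91 FPKM, a difference of 2.06 that was 0.90 without WT 2. Perp, a desmosomal p53 target, was at 334 and 1.36 FPKM in the WT libraries and 193 and 224 FPKM in the 211F libraries, and Trp53i11 at 49.9, 5.29, 40.8 and 47.4 FPKM. For Perp and Trp53i11 the low library was WT 2, and without it both differences turned negative (-0.68 and -0.18). The summed epithelial markers were also lowest in WT 2; their part in these levels was not tested.

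Repair genes differed by little in their means. Of 5 repair and nucleotide genes, 3 were positive and 2 negative, with differences from -0.25 to 0.10. Ddb2, which finds ultraviolet lesions, was at 14.0 and 6.29 FPKM in the WT libraries and 4.78 and 12.3 in the 211F libraries, lowest in 211F 1. Xpc, a lesion sensor, had 11.4 and 9.37 FPKM in WT libraries against 7.98 and 10.97, Rrm2b, a ribonucleotide reductase subunit, had 4.52 and 9.48 against 6.998 and 6.67, and the polymerase gene Polk had 6.55 and 5.71 against 6.54 and 6.70.

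Of 15 targets in metabolism and secretion, 14 were tested, split 7 to 7 with a median of -0.13. Tigar, a fructose bisphosphatase that lowers glycolytic flux, was at 4.27 and 4.21 FPKM in the WT libraries and 7.87 and 8.13 in the 211F libraries, with close replicates and no overlap (0.78 ± 0.32, SE; unadjusted p = 0.0702). Its difference kept between 0.76 and 0.80 when each library was left out. Ephx1, an epoxide hydrolase, was at 42.1 and 55.7 FPKM against 7.03 and 20.2 (-1.92 ± 0.56, SE; unadjusted p = 0.0264), and its difference ran from -1.22 without 211F 1 to -2.62 without 211F 2. Dram1, a lysosomal protein of autophagy, was at 11.5 and 13.3 against 5.69 and 0.710 FPKM, and Abhd4, a lipid hydrolase, at 32.5 and 25.9 against 19.9 and 22.0. Each of these 4 had a limma adjusted p of 0.9999.

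**Figure D3:**
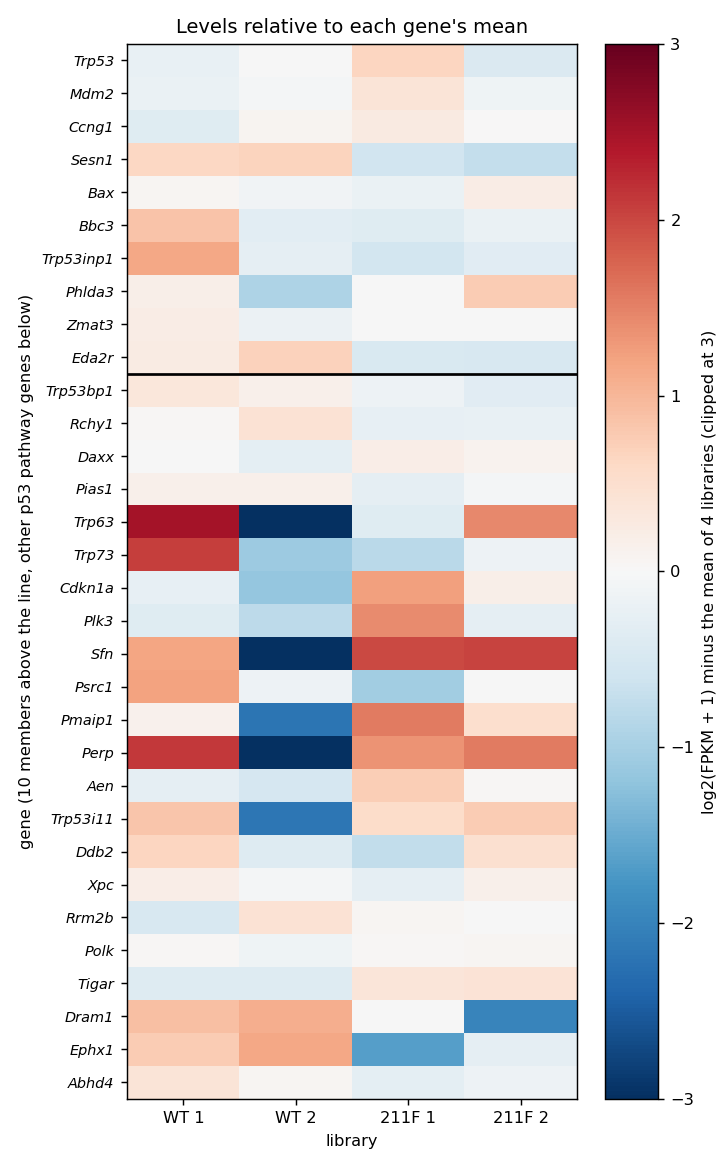
Level of the 10 members (above the line) and 22 other p53 pathway genes (below) in the 4 libraries, as log2(FPKM + 1) minus each gene's mean over the 4 libraries (colour, clipped at 3). Red is above and blue below that mean: Trp63, Sfn and Perp are deep blue in WT 2, and Sesn1 and Eda2r are red in both WT libraries.

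Over the 73 tested genes of the other p53 lists, 42 differences were positive and 31 negative, with a median of 0.06 beside 0.03 for all genes tested. Groups did not overlap in 11 genes higher and 8 lower in 211F, together 26.0% beside 26.8% of all genes, and 0 passed limma at an adjusted p of 0.05, with 1 (Ephx1) at an unadjusted p under 0.05. Targets thus lay on both sides. For example, Sesn1, Eda2r, Ephx1 and Dram1 were lower in both 211F libraries, and Cdkn1a, Pmaip1, Aen and Tigar higher in both. None of those tested passed. These examples were chosen after the values were seen and are not all the targets without overlap.

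**Figure D4:**
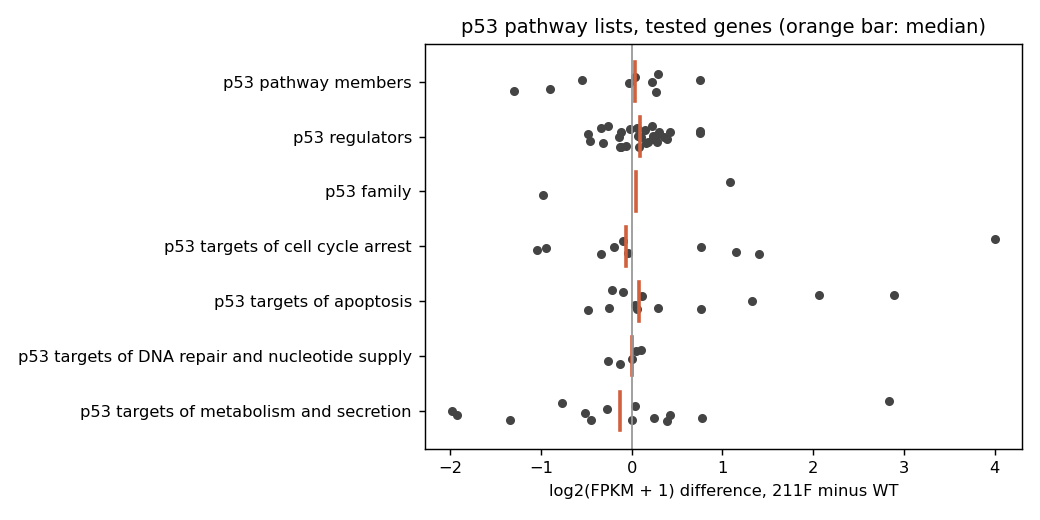
Difference in log2(FPKM + 1), 211F minus WT (horizontal axis), of each tested gene (points, jittered vertically) in 7 p53 pathway lists (vertical axis), with the median of each list as an orange bar. The medians lie between -0.13 and 0.10, and the points farthest to the right, Sfn and Perp, are genes at or below 1.36 FPKM in WT 2.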

How the data were processed

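The authors deposited 1 table of FPKM for 50679 Ensembl genes in 4 libraries, 2 per genotype. The submitters' processing notes name TopHat2 2.0.13, DESeq2 and GRCm38 without saying what each was used for. Not given in the sources used here are the quantifying program, its annotation and its strand setting, and overlapping genes may share reads. Symbols matched 50369 identifiers, and positions are from GENCODE M21. Differences are on the log2(FPKM + 1) scale, which understates changes at low levels. The 12767 genes that averaged 1 FPKM or more were fitted with limma 3.58.1 (R 4.3.3, intensity trend, two-sided, Benjamini-Hochberg adjusted over all of them, 0.05); the code was tested on simulated data. The table holds no read counts; low values in 1971 long genes with 1 transcript fell within 0.1 of whole fragments in 88.5% to 92.6% of cases, which gave the fragment steps. Depth relative to WT 1 came to 1.73 (WT 2), 1.09 (211F 1) and 0.938 (211F 2), if values were not rescaled. Copies were sought by aligning each gene's longest transcript to all transcripts (90% identity, 200 bases).

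The members, lists, tests and alternatives were chosen with earlier results of these data known. Named genes are all 10 members, up to 4 tested genes of smallest p from each other list, and the gene nearest in profile to each tested member. The search for nearest genes passed over mitochondrial, small RNA, pseudogene, predicted and clone-named symbols. It also passed over every symbol that begins with Rn, among them ordinary protein-coding genes. The alternatives were other pseudocounts, filters and scalings, no trend, the replicate block and leaving out each library; they were not run for the genes nearest in profile.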

Additional observations from a re-analysis of the deposited data

How the results depend on the processing

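limma called 0 genes, 0 members and 0 genes of the other p53 lists in every alternative with a test. The number of genes at an unadjusted p under 0.05 was 241, but 745 unfiltered, where more genes were tested, and 142 under the replicate block. With 1 library fewer it ran from 221 to 836, and WT 1 was the library left out at 836. The labels do not say that replicate numbers pair libraries; across genes, the deviations of libraries with the same number correlated at r = -0.465, and a crossed block, added after seeing the data, gave 520 genes at an unadjusted p under 0.05 and 0 calls. A group left with 1 library borrows the other group's spread.

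Members with a positive difference numbered 5, and 4 to 7 without 1 library; their median difference of 0.034 ranged from -0.053 to 0.12 in those fits, was 0.228 with a filter of 5 FPKM, which drops Bbc3 and Trp53inp1, and was -0.209 and 0.167 for WT 1 with 211F 2 and WT 2 with 211F 1 alone. Sesn1 stayed between -1.44 and -0.89. Leaving out a library moved the difference by over 1.5 times, or turned it, in 27 of the 31 tested members and list genes, 8 of 9 members among them. Of 462 values of these 31 genes, which include neither Eda2r nor the genes nearest in profile, 22 turned sign, in 4 members and 7 other genes; the cause was not tested. Bax was -0.011 with quantile normalization. In the pair of WT 1 with 211F 2, values turned for Trp53 (-0.21), Trp63 (-1.07), Trp53i11 (-0.073) and Perp (-0.57), and in the pair of WT 2 with 211F 1 for Bax (-0.10), Zmat3 (0.17), Trp73 (0.28) and Rrm2b (-0.39). Leaving out each library in turn gave -0.31 to 0.77 for Trp53, -0.18 to 0.25 for Bax, -1.14 to 0.039 for Bbc3, -0.23 to 0.17 for Zmat3, -2.56 to 0.61 for Trp73, -1.96 to 4.13 for Trp63, -0.18 to 2.84 for Trp53i11, -0.68 to 6.47 for Perp, -0.86 to 0.35 for Ddb2, -0.34 to 0.076 for Xpc and -0.42 to 0.51 for Rrm2b.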
